A study of Mus musculus with 50 samples.

Results

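The left ventricles of mice under a combined stress were compared with those of untouched mice by RNA sequencing. The stressed mice overexpressed LARP6 in their cardiomyocytes from a transgene and received angiotensin II (Tg Ang II, 12 libraries from 7 females and 5 males). The reference was the wild-type mice given sterile saline (WT saline, 11 libraries from 5 females and 6 males). These 23 libraries were chosen from the 50 of the series by genotype and infusion. Libraries 329 and 847 were left out because their column letters and their titles disagreed on the genotype. All mice were C57BL/6J and 40 weeks old, and the angiotensin II (Ang II) mice were given 1000 ng/kg/min. Tissue was taken after 21 days. The remaining arms, WT Ang II (13 libraries) and Tg saline (12 libraries), carry 1 of the stresses each and entered the statistical model, so that 48 libraries were fitted. The promoter of the transgene is not given in the sources used here, and counts for Larp6 join fragments of the transgene with those of the endogenous gene. Each library number occurs once, so each library was taken as a separate mouse. The labels say no more about this, and p-values measure the spread between these libraries.

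LARP6 is an RNA-binding protein known for binding a stem-loop at the start of collagen mRNAs, whose proteins make up most of a scar. Ang II is a peptide hormone that raises blood pressure and acts on heart muscle, vessels and fibroblasts. A ventricle under load is known to switch on genes of the fetal heart, among them natriuretic peptides and slow myosin, to deposit matrix, and to lower genes of fat burning and of calcium and ion transport.

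Levels are given as scaled FPKM, a count of fragments relative to transcript length and to the library's mapped fragments, divided by a scaling factor for each library. Where 2 ranges of libraries follow each other, the first is WT saline and the second Tg Ang II. Differences are log2 fold changes with their standard errors (SE), so that 1 is a doubling, and p-values are from edgeR's quasi-likelihood test with Benjamini-Hochberg adjustment over 11608 genes. An adjusted p under 0.05 counts as a call, and "rose" and "fell" are used only of called genes. Total counts ranged from 59431400 to 88052200 per Tg Ang II library and from 54888800 to 84721900 per WT saline library. Transcripts of the mitochondrial genome took 31.2% ± 1.33 (SD, n = 12) of counts in Tg Ang II and 36.1% ± 2.07 (SD, n = 11) in WT saline (two-sided permutation test, p = 2e-05, adjusted over 4 values 2.7e-05).

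Larp6 checked the labels. It ranged from 5.59 to 63.5 (median 32.1) scaled FPKM in WT saline and from 587 to 1177 (median 934) in Tg Ang II, with no overlap. The mean was 33.3 ± 17.4 (SD, n = 11) against 936 ± 184 (SD, n = 12). The log2 difference was 4.83 ± 0.28 (adjusted p = 7.1e-18), and a two-sided permutation test on the single gene gave p = 1e-05, the smallest that 1e+05 resamples can give. Because the arms are defined by this transgene, these values check the labels and are not a finding about the heart.

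The doubly stressed heart differed from the untouched heart in 5520 genes, 47.6% of those tested. Of these, 2725 rose (23.5%) and 2795 fell (24.1%), and the median over all genes was -0.01. When libraries were scaled by their size alone the median over all genes moved to 0.14 and the split became 5056 higher and 1222 lower, so the split of the calls depends on the scaling. At 1.5-fold or more there were 1041 called genes (8.97%), 591 higher (5.09%) and 450 lower (3.88%), and without scaling beyond library size 913 and 261. Rises were the larger changes: 245 genes rose and 110 fell at least 2-fold, 46 and 13 at least 4-fold, and 17 and 3 at least 8-fold. The threshold cut through a continuum, since Gm3650, Map2k3os and 1110038B12Rik lay just inside it and Klf2, Cystm1 and Hadha just outside. Every Tg Ang II library lay outside the range of WT saline in 788 genes (6.79%), above it in 467 (4.02%) and below it in 321 (2.77%). In whole tissue, fewer cells of a type and less RNA per cell cannot be told apart.

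The genes of the loaded heart rose together. All 14 tested hypertrophy and load markers rose, with a median of 1.63, and 13 of them did so by at least 1.5-fold. These markers, like the other lists, were chosen with earlier results of these data known, so their agreement is not independent support. Nppa, the precursor of atrial natriuretic peptide, ranged from 89.7 to 202 (median 117) in WT saline and from 674 to 2933 (median 1594) in Tg Ang II. It rose 11.9-fold (3.57 ± 0.26, adjusted p = 6.1e-15), and every Tg Ang II library stood above every WT saline library. Nppb, the precursor of B-type natriuretic peptide, ranged from 42.4 to 127 (median 81.8) and from 162 to 602 (median 316). It rose by 2.05 ± 0.30 (adjusted p = 2.2e-07), also without overlap. Myh7, the slow fetal myosin heavy chain, ranged from 122 to 198 (median 141) and from 378 to 1248 (median 624), a rise of 2.06 ± 0.18 (adjusted p = 9.7e-13). Myh6, the fast adult heavy chain, moved the other way, from 3108 to 4215 (median 3619) to 2146 to 3086 (median 2614) (-0.46 ± 0.06, adjusted p = 2.9e-08). The Myh6 libraries of the arms did not overlap either, and Myh6 stayed the more abundant chain per length in both arms.

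Ankrd1, a stretch-responsive cofactor found in the nucleus and the sarcomere, ranged from 157 to 616 (median 248) in WT saline and from 897 to 2304 (median 1444) in Tg Ang II (2.61 ± 0.19, adjusted p = 6.8e-15). Acta1, skeletal muscle actin, ranged from 70.8 to 272 (median 94.9) and from 149.8 to 664 (median 307) (1.78 ± 0.25, adjusted p = 8.5e-08), and its arms overlapped, unlike those of the natriuretic peptide and myosin genes above. In the arms with 1 stress, its difference from WT saline was 1.75 in WT Ang II and 0.12 in Tg saline (adjusted p = 0.73), while that of Myh7 was 0.54 and 2.07. Those comparisons share the WT saline libraries. Tg Ang II was directly above Tg saline for Acta1 by 1.66 ± 0.24 (adjusted p = 2.3e-05). Nmrk2, a muscle kinase that makes NAD from nicotinamide riboside, rose by 2.85 ± 0.21 and Csrp3, a stretch-sensing Z-disc protein, by 0.75 ± 0.06.

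**Figure D1:**
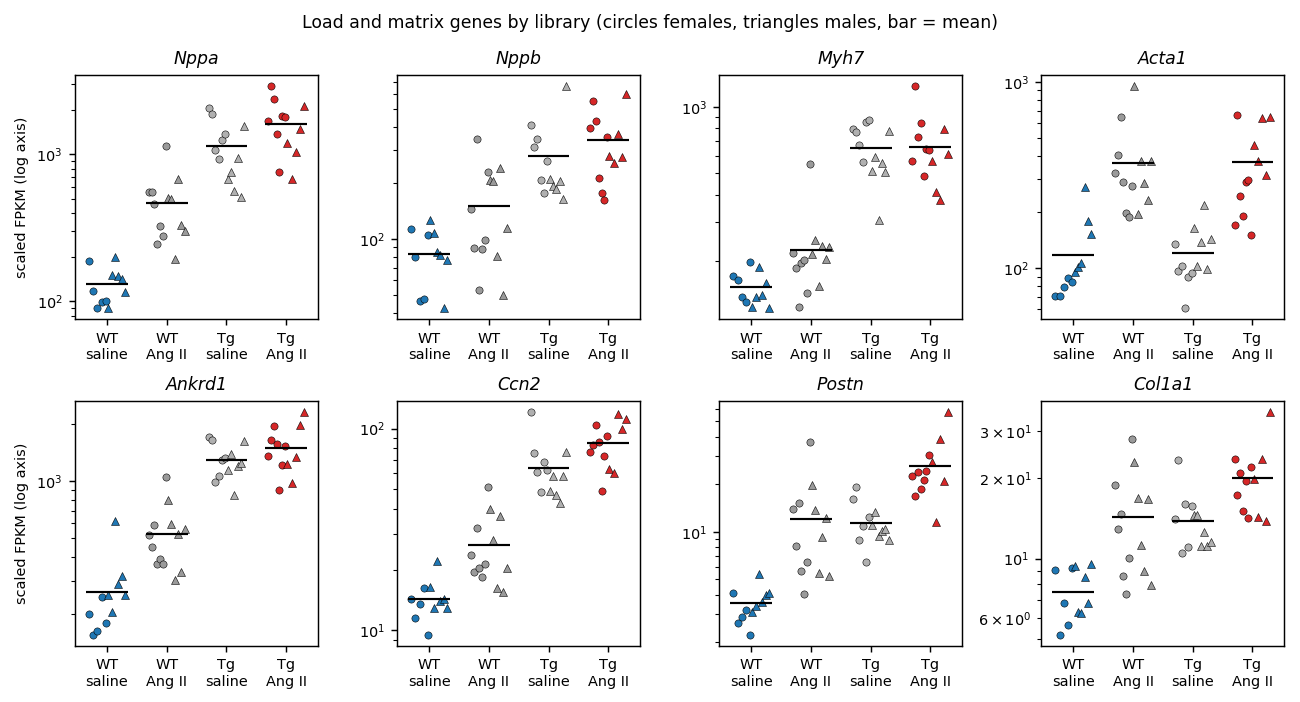
Scaled FPKM (log axis) of 8 load and matrix genes in each of the 48 libraries fitted, by arm. Circles are females, triangles males and bars arm means. Tg Ang II libraries lie above every WT saline library in all panels except Acta1, in which the arms overlap.

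Promoter sequences of 3 of these load genes are shown because CATTCC, the core of the MCAT element bound by TEAD factors in muscle, lies in them. They are from RefSeq on GRCm38.p6, read 5′ to 3′ on the gene's strand up to the gene's start, and capitals mark CATTCC or its reverse complement GGAATG.
Myh7 (chr14:54994627-54994876, minus strand): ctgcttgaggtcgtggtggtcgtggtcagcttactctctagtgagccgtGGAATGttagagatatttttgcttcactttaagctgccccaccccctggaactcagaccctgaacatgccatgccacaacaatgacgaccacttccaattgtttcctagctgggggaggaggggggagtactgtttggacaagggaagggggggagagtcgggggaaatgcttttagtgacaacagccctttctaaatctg
Acta1 (chr8:123894776-123895025, minus strand): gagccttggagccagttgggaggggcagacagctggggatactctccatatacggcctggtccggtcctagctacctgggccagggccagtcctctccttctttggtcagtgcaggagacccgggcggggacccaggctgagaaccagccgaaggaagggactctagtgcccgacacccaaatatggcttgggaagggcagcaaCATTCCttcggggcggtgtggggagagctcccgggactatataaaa
Ankrd1 (chr19:36119911-36120094, minus strand): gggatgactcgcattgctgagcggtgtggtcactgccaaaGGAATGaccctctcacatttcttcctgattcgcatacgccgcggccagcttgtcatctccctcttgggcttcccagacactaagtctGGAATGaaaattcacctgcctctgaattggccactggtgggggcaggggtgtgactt
The stretch of Ankrd1 is 184 bases long, since the rest of its window lies inside the annotated gene. In the 250 bases before the RefSeq start, the motif was found on either strand in 8 of the 17 genes with an entry among 22 (the 11 genes named throughout and the 15 largest rises), Myh6 included, and Nppa had none. It was found in 12.8% of 8431 tested genes with an entry, in 15.3% of the 432 that rose and in 17.5% of the 285 that fell at least 1.5-fold. A match is a string of letters and not a measured binding site.

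Matrix genes rose with the load genes. Of 6 fibrillar collagens tested 5 rose (median 1.28), and all 12 other collagens rose (median 0.69). Col1a1, the main chain of type I collagen, ranged from 5.19 to 9.54 (median 6.81) scaled FPKM in WT saline and from 13.9 to 35.3 (median 19.7) in Tg Ang II (1.43 ± 0.19, adjusted p = 2.9e-08). Its partner Col1a2 ranged from 4.18 to 6.28 (median 5.08) and from 7.6 to 20.1 (median 11.2) (1.22 ± 0.16, adjusted p = 1.7e-08). Both separated the arms completely. Col3a1, the chain of type III collagen, ranged from 5.27 to 14.6 (median 7.6) and from 14.5 to 51.6 (median 24.1) (a 2.82-fold rise, adjusted p = 4.2e-06), and here the lowest Tg Ang II library lay within the WT saline range. In the arms with 1 stress, Col1a1 differed from WT saline by 0.93 in WT Ang II and by 0.88 in Tg saline, and Col3a1 by 0.87 and 0.92. The network and fibril-associated collagens Col8a1 (1.94 ± 0.20), Col14a1 (1.17 ± 0.18), Col16a1 (1.11 ± 0.15) and Col4a5 (0.88 ± 0.08) were the members of their list with the smallest p.

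The enzymes and scaffolds that build the matrix followed. Of 21 collagen-processing genes 16 rose and 1 fell (median 0.32), led by the prolyl hydroxylase P3h2 (1.98 ± 0.14) and the procollagen protease Adamts2 (1.29 ± 0.14). Of 16 elastic fibre genes 11 rose and 2 fell (median 0.53). Mfap4, a microfibril protein, ranged from 2.46 to 5.02 (median 3.91) and from 13.9 to 37.1 (median 22.9) (2.60 ± 0.23), while Efemp1, a fibulin, fell by 1.42 on the log2 scale. Of 22 matricellular genes 16 rose and 2 fell (median 0.49), and 9 of 14 proteoglycans rose and 0 fell (median 0.41). Postn, periostin of activated fibroblasts, ranged from 2.24 to 5.43 (median 3.4) in WT saline and from 11.6 to 57.3 (median 23.2) in Tg Ang II, a 7.7-fold rise (2.95 ± 0.28, adjusted p = 8.6e-12). Cilp, a matrix protein of the fibrotic heart, ranged from 1.08 to 2.63 (median 1.52) and from 9.2 to 32 (median 16.1) (3.45 ± 0.33). Ccn2, a connective tissue growth factor, ranged from 9.54 to 22 (median 13.9) and from 48.8 to 118 (median 84.7) (2.59 ± 0.19, adjusted p = 2.6e-15). For Mfap4, Postn, Cilp and Ccn2 the arms did not overlap. The proteoglycan Bgn (biglycan) rose by 1.44 ± 0.14, the protease inhibitor Timp1 by 2.75 ± 0.26 and the matrix protease Mmp2 by 0.92 ± 0.12. Thbs2, a thrombospondin, stood apart and fell by 0.97 on the log2 scale.

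Growth factor genes moved in part. Of 21 genes of the TGF-beta pathway 10 rose and 5 fell (median 0.13), or 12 and 2 without scaling beyond library size. Of that list 71.4% was called, against 47.6% of all genes tested, of which 23.5% rose and 24.1% fell. Its falls were near that share. The ligand Tgfb2 ranged from 1.15 to 1.95 (median 1.5) and from 3.72 to 9.69 (median 5.18) (1.91 ± 0.15), the activin antagonist Fstl3 rose by 1.86 ± 0.13 and the decoy receptor Bambi by 1.07 ± 0.11. The hormone's own receptor gene, Agtr1a, ranged from 8.64 to 13.8 (median 10.5) and from 4.48 to 8.62 (median 6.22) and fell by 0.80 on the log2 scale (adjusted p = 1.1e-08), whereas Ace, the enzyme that makes Ang II, rose by 0.94 ± 0.12 and the endothelin Edn3 by 1.83 ± 0.16. In their list of 15 renin-angiotensin and endothelin genes 4 rose and 5 fell (60% called), or 6 and 5 without scaling beyond library size. The rises of this list were near the share over all genes.

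Markers of other cell types moved too, but their lists share members with the matrix lists. Ltbp2 (3.51) is counted both among elastic fibre genes and among activated fibroblast markers, so these counts are not separate observations. All 12 tested markers of activated fibroblasts rose (median 2.40), and their summed level was 52.8 to 87.7 scaled FPKM in WT saline and 149.5 to 327 in Tg Ang II. Of 15 markers of resident fibroblasts 7 rose and 2 fell (60% called, against 47.6% of all genes, median 0.20), with overlapping sums of 488 to 636 and 431 to 764. Pi16, a marker of perivascular fibroblasts, rose by 1.53 ± 0.12 and Scara5 fell by 0.87 on the log2 scale. Of 15 macrophage markers 11 rose and 0 fell (median 0.63), and the sums of 110.5 to 143 and 135 to 276 overlapped. The galectin Lgals3 ranged from 0.756 to 1.76 (median 1.09) and from 2.89 to 10.02 (median 6.02) (2.37 ± 0.24), Lyz2 rose by 0.84 ± 0.16 and C1qb by 0.76 ± 0.13. The macrophage median was 0.28 in WT Ang II and 0.85 in Tg saline against the same WT saline libraries. None of 6 MHC class II genes, 6 blood cell markers and the 2 lymphocyte markers tested was called by edgeR, DESeq2 or limma-voom, and 0 of them had an unadjusted p under 0.05 by any of these tools. The part of these cells in the matrix result was not tested.

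Endothelial markers were lower. Of 18 endothelial markers 15 fell and 0 rose (median -0.43), or 9 and 0 without scaling beyond library size (median -0.27). They include the VEGF receptor Kdr (-0.82 ± 0.12) and the junction cadherin Cdh5 (-0.46 ± 0.07), with overlapping arms. The endothelial median was 0.015 in WT Ang II and -0.45 in Tg saline against the same WT saline libraries. Of 14 mural cell markers 9 fell and 3 rose (median -0.44). The summed mural level was nevertheless higher, 722 to 995 against 552 to 659, and the abundant Des (0.81 ± 0.07), a muscle intermediate filament shared with cardiomyocytes, was among those that rose. Notch3, a receptor of mural cells, fell by 0.87 on the log2 scale. Of 12 cardiomyocyte markers 7 fell and 0 rose (median -0.22), with sums of 18210 to 22682 in Tg Ang II and 20981 to 24253 in WT saline. Without scaling beyond library size this became 3 lower and 2 higher. Ckm, muscle creatine kinase, ranged from 475 to 537 (median 500.1) and from 226 to 383 (median 266) (-0.79 ± 0.07, adjusted p = 2.5e-12), with every Tg Ang II library below every WT saline library.

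Most complement genes rose and cytokine genes moved in both directions, where 23.5% of all genes tested rose and 24.1% fell. Of 18 complement genes 13 rose and 0 fell (median 0.53), including Masp1, a protease of the lectin pathway (1.47 ± 0.10), and C4b (1.04 ± 0.13). The complement median was 0.05 in WT Ang II and 0.69 in Tg saline against the same WT saline libraries. Of 21 chemokine and cytokine genes 8 rose and 4 fell (57.1% called, against 47.6% of all genes), or 13 and 3 without scaling beyond library size. Serpina3n, an acute-phase protease inhibitor, ranged from 3.98 to 12 (median 7.86) and from 17.7 to 50.7 (median 29.1) (1.98 ± 0.20). The eosinophil chemokine Ccl11 ranged from 0.661 to 2.28 (median 1.6) and from 0.0709 to 0.38 (median 0.269) (-2.39 ± 0.31, adjusted p = 1.6e-08), and the stromal chemokine Cxcl12 fell by 0.76 on the log2 scale. Of 18 interferon-stimulated genes 8 rose and 0 fell (44.4% called, median 0.24), or 12 and 0 without that scaling.

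Of 24 sodium and potassium channel genes 17 fell and 3 rose (median -0.34). Without scaling beyond library size 11 fell and 4 rose (median -0.19). The channel median was -0.12 in WT Ang II and -0.23 in Tg saline against the same WT saline libraries. Scn4b, a beta subunit of the cardiac sodium channel, ranged from 6.01 to 13.8 (median 10.4) scaled FPKM in WT saline and from 0.836 to 2.74 (median 1.66) in Tg Ang II, the deepest fall among genes above the level minimum of 5 (-2.63 ± 0.18, adjusted p = 1.4e-15). Scn4a, a sodium channel pore gene, fell by 1.38 and Kcnj3, an acetylcholine-gated potassium channel, by 0.98 on the log2 scale. Abcc9 encodes the regulatory subunit of ATP-sensitive potassium channels and is also in the mural cell list. It ranged from 26.2 to 36.1 (median 29.8) and from 9.62 to 17 (median 13.9) (-1.19 ± 0.09). None of these 4 overlapped between the arms.

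Calcium cycling genes split. In their list of 16, 6 rose and 5 fell (68.8% called, against 47.6% of all genes), or 7 and 3 without scaling beyond library size. Atp2a2, which encodes the pump that refills the calcium store, ranged from 1172 to 1847 (median 1635) and from 821 to 1202 (median 982) (-0.69 ± 0.07, adjusted p = 6.0e-11), and a single low WT saline library reached into the Tg Ang II range. Strit1, which encodes a small peptide that activates this pump, ranged from 5.21 to 8.94 (median 6.93) and from 0 to 2.44 (median 0.961) (-2.61 ± 0.34, adjusted p = 1.6e-08), and 1 Tg Ang II library was listed at 0. Hrc, a calcium-binding protein of the reticulum, fell by 0.77 on the log2 scale. The calcium store protein Casq2 rose by 0.51 ± 0.06, and its skeletal paralog Casq1 by 1.37 ± 0.15.

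Sarcomere genes split as well, 6 up and 7 down of 18 (72.2% called, against 47.6% of all genes, median 0.06). Mylk4, a myosin light chain kinase of heart muscle, ranged from 14.3 to 34.1 (median 23.3) and from 4.12 to 9.28 (median 6.9) (-1.87 ± 0.15). Without scaling beyond library size the same list held 10 rises and 3 falls. Rpl3l, the muscle form of a ribosomal protein, ranged from 75 to 108 (median 83) and from 18.6 to 43.1 (median 30.2) (-1.56 ± 0.13, adjusted p = 1.0e-13), and its general counterpart Rpl3 ranged from 28.5 to 41.2 (median 33.7) and from 51.5 to 70.7 (median 59.7) (0.82 ± 0.07, adjusted p = 2.3e-13). The pair moved in opposite directions, each without overlap. The locus of Mir208b, which lies inside Myh7, fell by 1.77 on the log2 scale while Myh7 rose. Because the locus lies inside its host gene, fragments of the host and of the locus cannot be told apart here. The counting tool and its strand setting are not given in the sources used here.

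**Figure D2:**
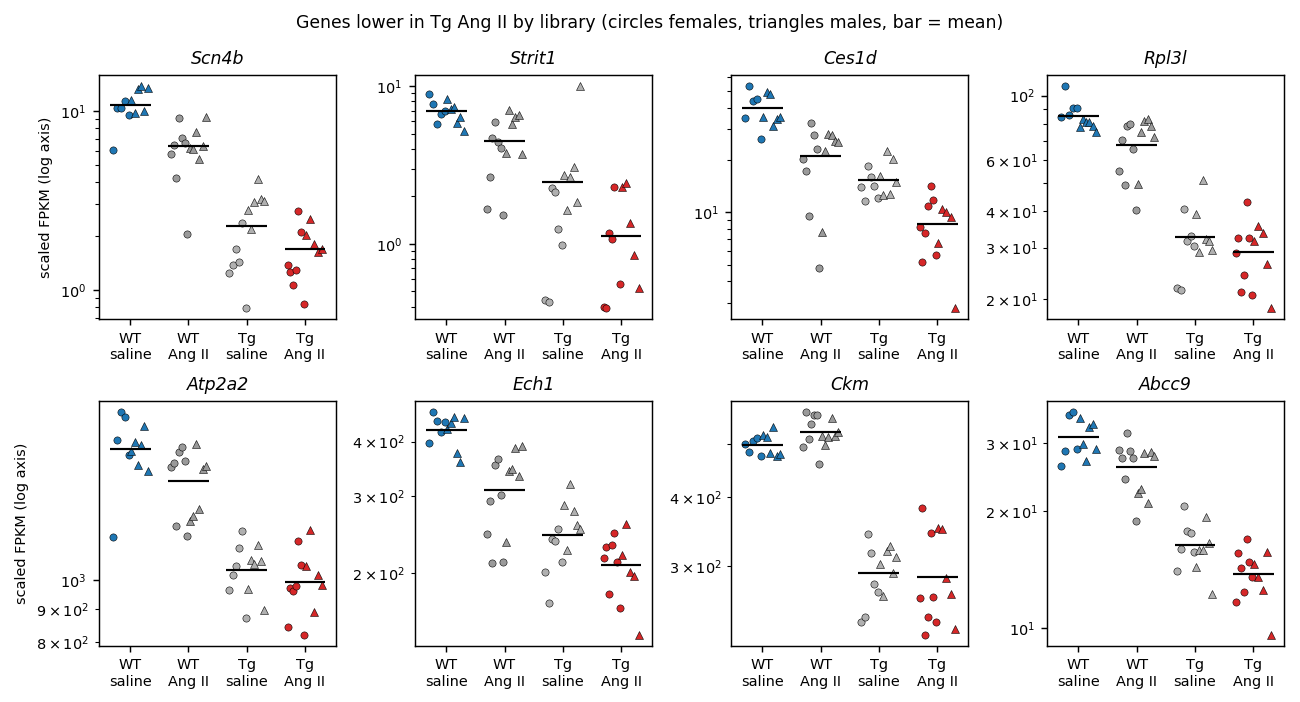
Scaled FPKM (log axis) of 8 genes that were lower in Tg Ang II, in each of the 48 libraries fitted, by arm. Circles are females, triangles males and bars arm means. Every Tg Ang II library lies below every WT saline library in all panels except Atp2a2. The Tg Ang II library of Strit1 that was listed at 0 cannot be drawn on a log axis.

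Genes of oxidative fuel use fell in 3 lists. Of 35 genes of fatty acid uptake and oxidation 30 fell and 1 rose (median -0.46), against 24.1% of all genes that fell. Ech1, an isomerase of unsaturated fatty acid oxidation, ranged from 359 to 467 (median 440.1) in WT saline and from 145 to 259.6 (median 215) in Tg Ang II (-1.03 ± 0.09, adjusted p = 1.8e-12). Acaa2, the thiolase that ends each oxidation cycle, ranged from 338 to 439 (median 391) and from 129 to 246 (median 202) (-0.99 ± 0.10, adjusted p = 1.0e-10). Neither overlapped between the arms. Of 21 genes of the tricarboxylic acid cycle 20 fell and 0 rose (median -0.29), and of 22 genes of branched-chain amino acid degradation 20 fell and 1 rose (median -0.38). Bckdhb, a subunit of the complex that commits branched-chain keto acids to oxidation, fell by 0.76 on the log2 scale and Sucla2, a ligase subunit of the cycle, by 0.39. Without scaling beyond library size these lists held 26, 12 and 18 falls. Against WT saline, their medians in the same order were -0.18, -0.10 and -0.14 in WT Ang II and -0.39, -0.25 and -0.27 in Tg saline. For Tg Ang II directly against Tg saline they were -0.06, -0.04 and -0.08.

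Respiratory chain changes were smaller in the nuclear subunits than in the mitochondrially encoded proteins. All 13 mitochondrially encoded proteins fell (median -0.35). So did 12 of 36 nuclear subunits of complex I (33.3% called, median -0.16) and 15 of 39 of complexes II to V (38.5% called, median -0.17). Over all genes tested 47.6% were called and 24.1% fell. The nuclear lists were thus called less often than genes at large, though all of their calls were falls. Without scaling beyond library size the mitochondrially encoded, complex I and complexes II to V lists held 10, 6 and 9 falls. There were then 2 rises in each of the nuclear lists, with medians of -0.01 and -0.03 there. Uqcrc1, a core subunit of complex III, fell by 0.43 on the log2 scale.

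Sugar metabolism changed in both directions, with 11 rises and 13 falls among 30 genes (80% called, against 47.6% of all genes). Without scaling beyond library size these were 13 and 10. Pfkfb1, a bifunctional enzyme that sets a glycolytic signal, ranged from 3.56 to 7.28 (median 5.3) and from 0.669 to 1.89 (median 1.31) (-2.06 ± 0.18). The muscle enolase Eno3 fell by 0.80 and the heart lactate dehydrogenase subunit Ldhb by 0.71 on the log2 scale. The platelet-type phosphofructokinase Pfkp rose by 1.12 ± 0.12. Ces1d, a carboxylesterase that hydrolyses stored lipid, ranged from 26.3 to 53.6 (median 35.3) and from 2.8 to 14.1 (median 8.79) (-2.24 ± 0.23, adjusted p = 6.9e-11).

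Protein quality genes rose in part. Of 17 small heat shock and co-chaperone genes 12 rose and 0 fell (median 0.31), with the smallest p for Hsp90aa1 (1.13 ± 0.09), an inducible form of the HSP90 chaperone. Of 34 proteasome subunits 20 rose and 3 fell (median 0.14), and of 23 cytoskeletal genes 14 rose and 1 fell (median 0.45). Flnc, a filamin that cross-links actin in muscle, ranged from 20.2 to 32.8 (median 26.6) and from 43.9 to 75.6 (median 58.2) (1.06 ± 0.09). Of 28 antioxidant genes 16 rose and 6 fell, with Gpx3, the secreted glutathione peroxidase, up by 1.10 ± 0.12 and Sod2, the mitochondrial superoxide dismutase, down (-0.42 ± 0.05). Of 19 integrated stress genes 11 rose and 3 fell. Of 22 endoplasmic reticulum stress genes 2 rose and 5 fell (31.8% called, against 47.6% of all genes). That split turned to 6 and 1 without scaling beyond library size. The stress hormone Gdf15 ranged from 0.172 to 1.08 (median 0.393) and from 1.08 to 7.56 (median 2.3) (2.86 ± 0.44), with overlap. Of 19 circadian clock genes (15.8% called) 1 rose and 2 fell, which became 3 and 1 without scaling beyond library size. The proteasome split became 30 and 0, the antioxidant one 18 and 4 and the integrated stress one 12 and 1.

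**Figure D3:**
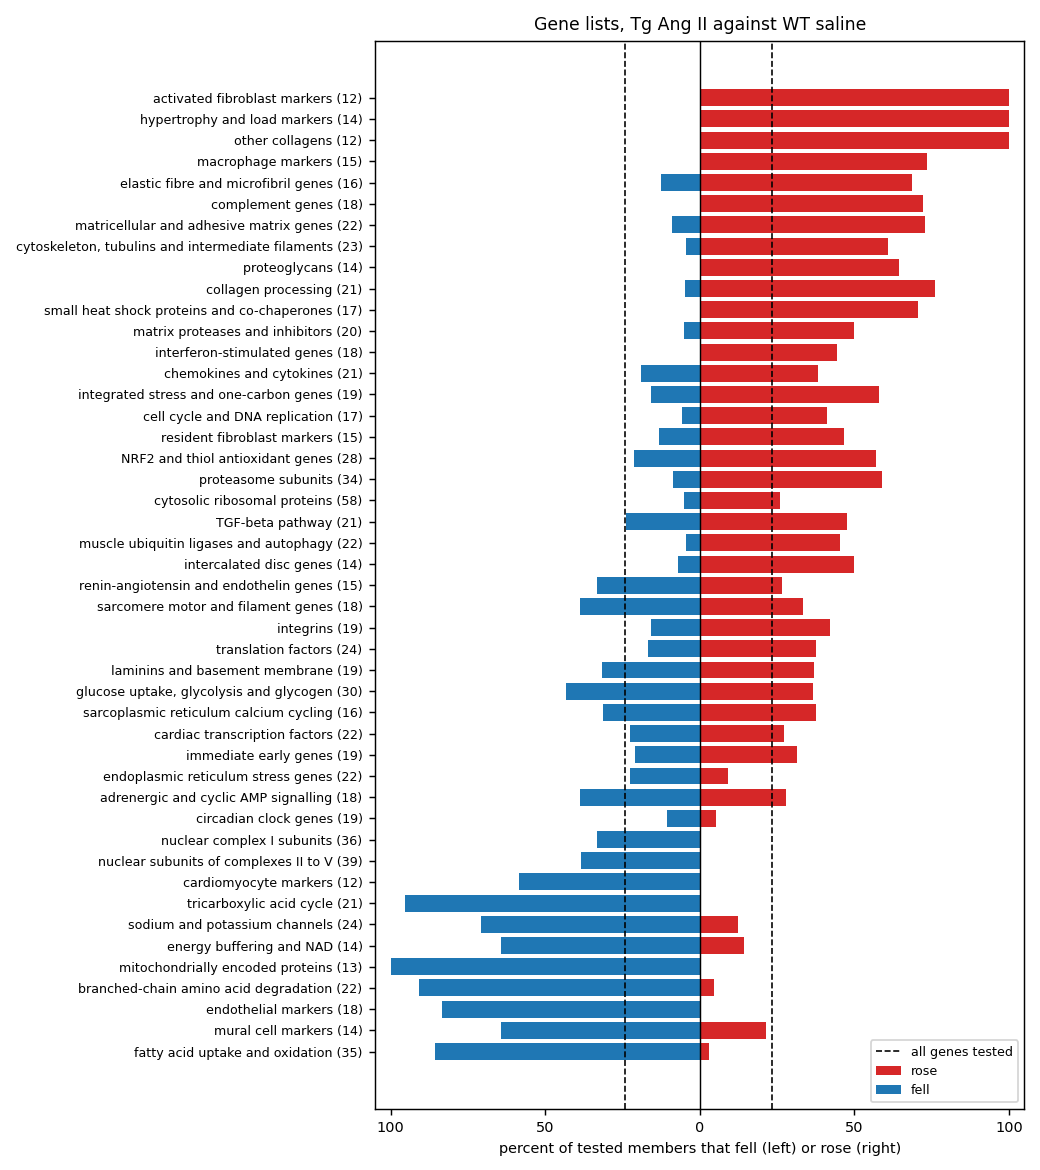
Percent of tested members that fell (left) or rose (right) in Tg Ang II against WT saline for the 46 gene lists with 12 or more tested members, whose number is in brackets, ordered by median log2 fold change. Dashed lines mark all genes tested, 24.1% lower and 23.5% higher. Activated fibroblast, load and collagen lists lie at one end, and fatty acid, mural, endothelial and branched-chain amino acid lists at the other. The lists were chosen with earlier results of these data known.

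Among the largest rises outside these groups were 3 genes that were low in untouched hearts. Sprr1a, a small proline-rich protein of stressed cells, ranged from 0.104 to 1.14 (median 0.506) and from 3.41 to 24 (median 10.9) (4.69 ± 0.35, adjusted p = 1.0e-14). Rprm, a cell cycle inhibitor, ranged from 0.239 to 2.41 (median 1.27) and from 16.8 to 44 (median 31.8) (4.55 ± 0.22, adjusted p = 5.0e-20). Gm13054 ranged from 0.14 to 0.512 (median 0.302) and from 1.73 to 18.9 (median 5.01) (4.14 ± 0.40). These did not overlap. Rprm differed from WT saline by 4.86 in Tg saline and by 0.24 in WT Ang II (adjusted p = 0.49). Gm49540 was named by the same rule at 3.60 ± 1.42 (adjusted p = 0.033), but its arms overlapped, and without replicate 2 of the Tg Ang II males the difference was 0.05 (adjusted p = 0.99). The 15 largest falls also included Plxnb1, a semaphorin receptor (-2.07 ± 0.13), and Lgals4, a galectin (-1.87 ± 0.19).

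A set of genes was called at 1.5-fold or more only with both stresses. A gene was counted when it was called at 1.5-fold or more in Tg Ang II against WT saline and in neither WT Ang II nor Tg saline in the same direction. The 3 comparisons share the WT saline libraries. There were 352 such genes (3.03% of those tested), 143 higher (1.23%), which is 24.2% of the 591 rises, and 209 lower (1.8%), which is 46.4% of the 450 falls. Without scaling beyond library size the set held more rises than falls, 249 and 128. In 140 of the 143 and 202 of the 209 both single estimates were under 1.5-fold, and in the others a larger single estimate was not called. By themselves, WT Ang II had 220 calls at 1.5-fold (1.9%), 154 higher (1.33%) and 66 lower (0.569%), among 1766 calls in all (15.2%). Tg saline had 784 (6.75%), 514 higher (4.43%) and 270 lower (2.33%), among 4733 (40.8%). The medians of the 143 were 0.68 with both stresses, 0.30 with Ang II alone and 0.48 with the transgene alone, and those of the 209 were -0.68, -0.27 and -0.46. For 68 and 97 of them the larger single difference lay between 1.4-fold and 1.5-fold, so many passed the threshold by a small step. In 5 and 13 of them both single differences were under 1.25-fold. Tg Ang II was called both against WT Ang II and against Tg saline in 42 of the 143 and in 50 of the 209.

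The rises of this set came from many lists, with at most 4 in any list. These were 4 of the 12 other collagens, where 1.23% of all genes tested were. Of the 9 other collagens that rose at least 1.5-fold they were 4, against 24.2% of all such rises. The lists of load markers (14 tested), small heat shock genes (17) and cytoskeletal genes (23) held 3 each. Loxl2, a collagen cross-linking enzyme, ranged from 1.27 to 2.48 (median 1.87) in WT saline, from 1.34 to 4.6 (median 1.97) in WT Ang II, from 1.87 to 4.57 (median 2.51) in Tg saline and from 2.32 to 5.97 (median 3.74) in Tg Ang II. Its log2 differences from WT saline were 0.41 with Ang II alone, 0.54 with the transgene alone and 1.06 ± 0.18 with both (adjusted p = 6.5e-06). Kif5b, a kinesin motor, ranged from 8.53 to 12.9 (median 11.1) in WT saline and from 15.5 to 30.7 (median 19.6) in Tg Ang II, with 0.36, 0.50 and 0.92 ± 0.08 and no overlap between these 2 arms. It was also called directly against WT Ang II (0.56 ± 0.08, adjusted p = 1.5e-07) and Tg saline (0.42 ± 0.08, adjusted p = 4.1e-04). The fibronectin receptor chain Itga5 (0.83 ± 0.07) and the load markers Des (0.81 ± 0.07) and Csrp3 (0.75 ± 0.06) were called in the same 2 direct tests.

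Among the falls, Inmt, a methyltransferase, ranged from 5.14 to 10.2 (median 6.59) in WT saline, from 0.855 to 15.2 (median 3.76) in WT Ang II, from 2.51 to 12.4 (median 7.12) in Tg saline and from 0.56 to 5.91 (median 2.7) in Tg Ang II. Its differences were -0.48, 0.08 and -1.28 ± 0.30 (adjusted p = 4.9e-04), and the arms overlapped. It is 1 of 5 falls, with Gm11816, Gm44220, Gm29686 and Ctf1, that were called in neither single comparison and in both direct tests, and 0 rises were (these 4 were named after their values were seen). Thbs2 ranged from 2.83 to 4.72 (median 3.43) in WT saline and from 1.32 to 2.16 (median 1.87) in Tg Ang II, without overlap, with -0.56, -0.25 and -0.97 ± 0.10. Crhr2, the heart's urocortin receptor, ranged from 4.09 to 6.39 (median 4.88) and from 1.91 to 3.3 (median 2.85), with -0.47, -0.36 and -0.89 ± 0.09 (adjusted p = 1.5e-11). S1pr3, a sphingosine phosphate receptor, fell by 0.92, Hrc by 0.77 and Smtn, a smooth muscle cytoskeletal protein, by 0.66 on the log2 scale. Of 35 fatty acid genes 5 were among these falls and 1 among the rises. Of 22 branched-chain amino acid genes 5 were among the falls, where 1.8% of all genes tested were. Most members of both lists fell in any case, 30 and 20 of them. Among falls of at least 1.5-fold, the set held 5 of 8 and 5 of 6, against 46.4% over all genes. The falls of these lists in the set include Etfb (-0.69 ± 0.07), which passes electrons from fatty acid oxidation to the respiratory chain. They also include Mccc2 (-0.66 ± 0.05), a carboxylase subunit of leucine breakdown. With Ang II alone and the transgene alone, Etfb differed by -0.19 and -0.55 and Mccc2 by -0.26 and -0.48. Directly against Tg saline, Tg Ang II was called for Mccc2 (adjusted p = 0.028) and not for Etfb (adjusted p = 0.22). Gm20716, at -6.55 ± 2.65 the member with the largest estimate, was listed at 0 in libraries of both arms, and its difference was 0.32 in females alone.

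**Figure D4:**
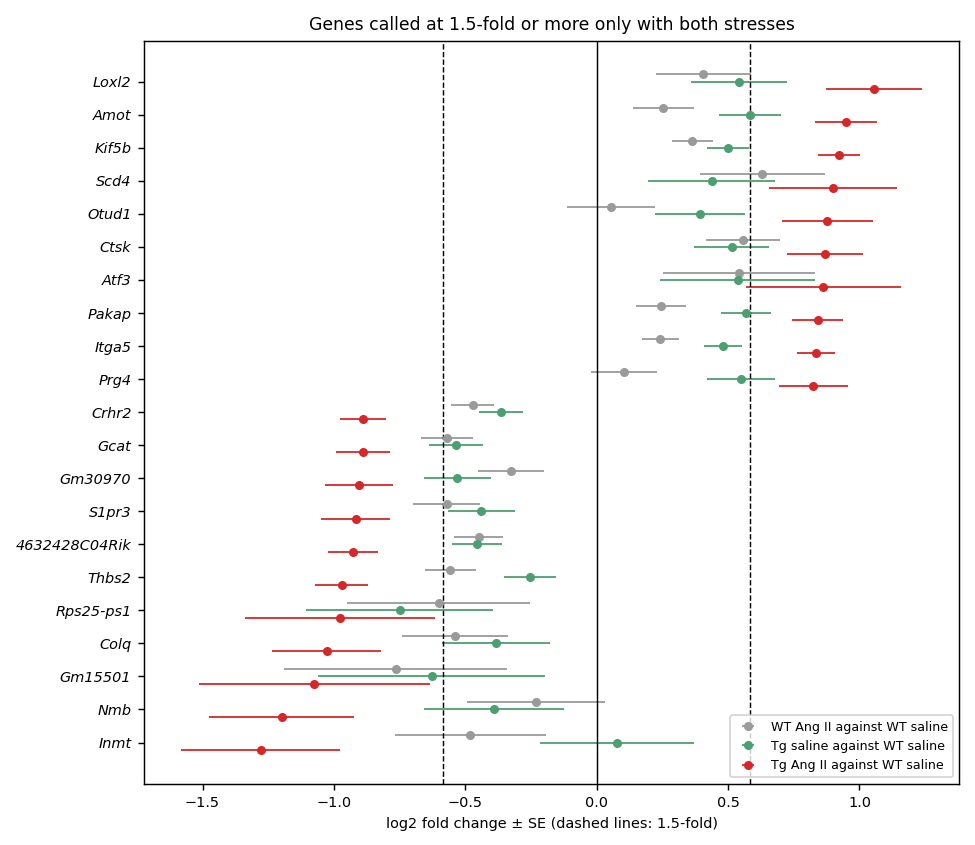
Log2 fold change against WT saline ± SE in the 3 other arms for 21 of the genes chosen by rule that were called at 1.5-fold or more (dashed lines) only with both stresses; Gm49540 and Gm20716, with an SE above 1, are not drawn. The Tg Ang II points lie beyond the dashed lines. The points of WT Ang II and Tg saline lie mostly between those lines and 0.

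Whether the effect of both stresses departed from the sum of the single ones was tested by the interaction of genotype and Ang II on the log scale. It was called in 3 genes (0.0258%), with 932 at an unadjusted p under 0.05 (8.03%), against 25 by DESeq2 and 3 by limma-voom. Of the 352 genes above, 0 were called in it and 7 of the rises and 7 of the falls had an unadjusted p under 0.05, while DESeq2 called 1 of them and limma-voom 0. Fbln1, a fibulin of the basement membrane, ranged from 11.4 to 15.3 (median 13.7) in WT saline, from 10.6 to 19.2 (median 15.1) in WT Ang II, from 16.6 to 28.2 (median 20.5) in Tg saline and from 11.6 to 20.8 (median 17.5) in Tg Ang II. Its interaction was -0.60 ± 0.10 (adjusted p = 0.0025), and its median was higher in Tg saline than in Tg Ang II. Mybpc2, a fast-type myosin binding protein, rose by 0.87, 1.45 and 1.47 in the 3 arms (interaction -0.85 ± 0.17, adjusted p = 0.035). Tmem30a, a flippase subunit, had an interaction of 0.19 ± 0.04 and a combined difference of 0.01. Leaving out any of 12 libraries left only Fbln1: female replicates 1, 5, 6 and 7 and male replicates 3 and 4 of Tg Ang II, and females 1, 4 and 5 and males 1, 2 and 6 of WT saline. Without male 5 of Tg Ang II there were 8 genes, and with a block for clusters of library numbers there were 0 (610 at an unadjusted p under 0.05), with an adjusted p of 0.18 for Fbln1.

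The arms with 1 stress were also set directly against both. Tg Ang II differed from WT Ang II in 3871 genes (33.3%), 478 of them at least 1.5-fold (4.12%), and from Tg saline in 917 (7.9%), 76 of them at least 1.5-fold (0.655%). For Nppa the log2 difference was 1.74 ± 0.23 against WT Ang II (adjusted p = 8.4e-08) and 0.50 ± 0.23 against Tg saline (adjusted p = 0.18). For Postn it was 1.16 ± 0.25 (adjusted p = 2.7e-04) and 1.22 ± 0.25 (adjusted p = 0.0016), and for Scn4b -1.89 ± 0.18 (adjusted p = 2.5e-11) and -0.32 ± 0.17 (adjusted p = 0.28).

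Both sexes showed the difference. In females alone 3981 genes were called (34.3%), 1039 of them at least 1.5-fold (8.95%), and in males alone 3704 (31.9%), 1067 of them at least 1.5-fold (9.19%). The test of the difference between the sexes called 0 genes by edgeR (0%), with 615 at an unadjusted p under 0.05 (5.3%), 2 by DESeq2 and 0 by limma-voom. Nppa rose by 3.94 ± 0.39 in females and 3.21 ± 0.36 in males, Postn by 2.90 ± 0.40 and 2.99 ± 0.39, and Ankrd1 by 2.94 ± 0.28 and 2.28 ± 0.27. Scn4b differed by -2.64 ± 0.25 and -2.63 ± 0.27, and Strit1 by -3.06 ± 0.46 and -2.16 ± 0.48.

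**Figure D5:**
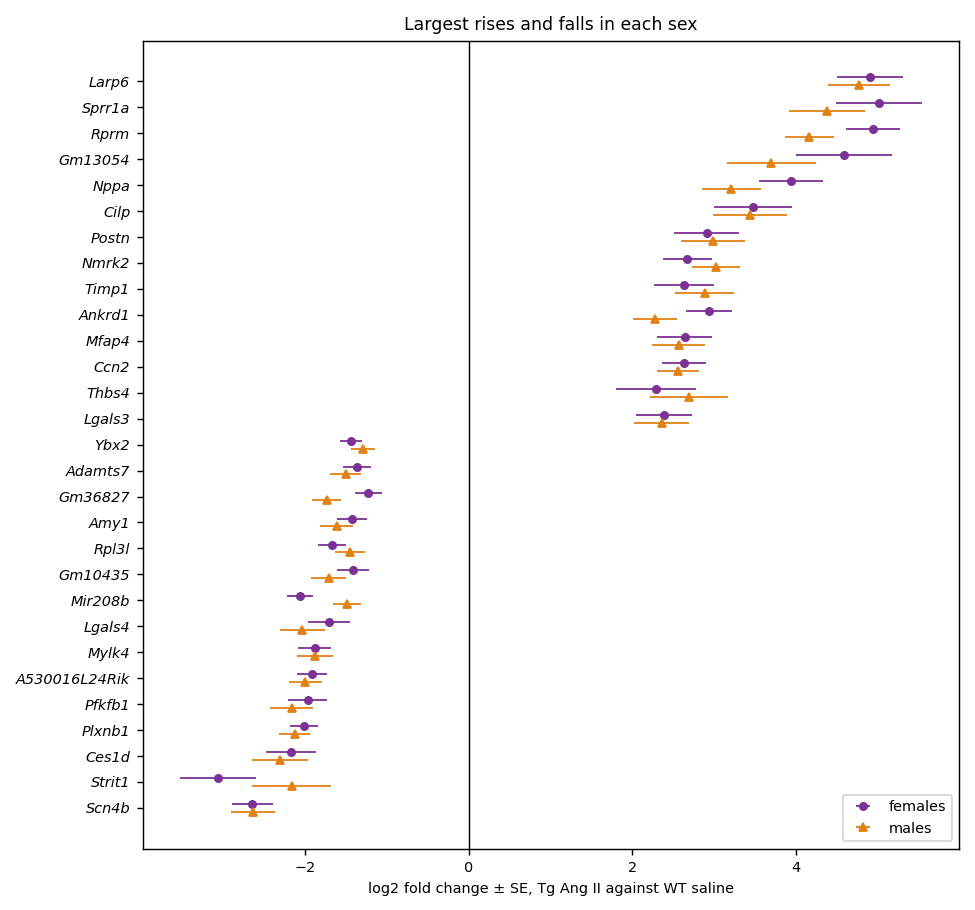
Log2 fold change ± SE of Tg Ang II against WT saline in females (circles) and males (triangles) for 29 of the 30 largest rises and falls; Gm49540, with an SE above 1, is not drawn. Each gene lies on the same side of 0 in both sexes.

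Library numbers fell into clusters, and the labels do not say what the numbers stand for. In the 7 clusters that held both arms, Larp6, Nppa, Nppb, Myh7, Col1a1, Col1a2, Col3a1, Postn and Ccn2 were higher in Tg Ang II in 7 of 7 clusters, Acta1 in 6 of 7 and Myh6 in 0 of 7. The within-cluster difference of log2 levels for Nppa ranged from 2.77 to 4.22 and for Postn from 1.62 to 3.44.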

How the data were processed

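RNA of 50 left ventricles had been selected for poly(A), made into dUTP libraries and sequenced as paired ends, per the labels' protocols. The submitters' processing notes name HISAT2 2.0.4, StringTie 1.3.4d, cutadapt 1.9 and FastQC. The counting tool, its strand setting and the genome build are not given in the sources used here. The deposited counts per gene are whole numbers and entered the model without change. The deposited FPKM values, which the authors divided by transcript length and library size, gave the levels and the filter. Of 35717 gene identifiers, 35599 occur in GENCODE M21 on GRCm38, 91.6% at identical positions.

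Groups came from the titles. The 11608 genes that reached an FPKM of 1 in 5 libraries or more were tested. Counts were scaled by median of ratios and fitted with edgeR 4.0.16 (R 4.3.3, limma 3.58.1, DESeq2 1.42.0) with 1 mean for each of the 8 groups of genotype, infusion and sex, females and males weighted equally. P values were two-sided. The median gene had a mean count of 1194 per library, which gives a counting error of 2.89%. The fit was tested on simulated counts for Tg Ang II against WT saline over 11608 genes. In these, 100 genes were changed by 1.5-fold and 100 by 2-fold, equally up and down. The fit recovered 92% of changes of 1.5-fold and 98% of changes of 2-fold, and 5.94% of its calls were false. With so few genes changed, the simulation cannot test the scaling of the real comparison, in which 47.6% of genes were called. No 2 libraries within an arm and sex were duplicates: their counts gave a chi-square per gene of 21.2 or more.

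Genes were named by rule: 11 named throughout, the 15 largest rises and falls with an arm's mean scaled FPKM reaching 5, the 12 largest rises and falls of the set past 1.5-fold only with both stresses with a mean reaching 2, the interaction calls, and up to 4 members of each of 58 gene lists by smallest p; 1 gene so chosen is not reported here. Members and lists were chosen with earlier results of these data known. Alternatives were other scalings, tools and filters, a block, single sexes, other folds and leaving out each library.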

Additional observations from a re-analysis of the deposited data

Results flagged for a closer look

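Larp6 was high in both libraries that the comparison does not use. It stood at 1117 scaled FPKM in library 847, titled Tg Ang II, and at 1001 in library 329, titled WT Ang II, where the WT libraries in the fit ranged from 5.59 to 63.5. Both values lay far above that range, whereas the title of 329 and the column letters of 847 say WT. Of 44 groups of 1 gene, arm and sex tested for a library far from the others, 2 had one, where chance gives about 1 in 20. Nppa was 188 in library 239, a WT saline female, against 117 in the next. Acta1 was 664 in library 238, a Tg Ang II female, against 298 in the next. The difference between the effect of Ang II in Tg and in WT hearts was called by edgeR for Fbln1 (-0.60), Mybpc2 (-0.85) and Tmem30a (0.19).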

How the results depend on the processing

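The counts of 5520 called genes, 1041 at 1.5-fold, 352 past it only with both stresses and 3 in the interaction became 5517, 1039, 352 and 3 under TMM scaling. They became 6278, 1174, 377 and 3 without scaling beyond library size, where 122 of the 352 genes were shared. With libraries 329 and 847 under their titles, which counts 329 as WT, they were 5659, 1055, 356 and 5. DESeq2 called 25 interaction genes. With no filter on low values there were 2628 genes at 1.5-fold, 1178 only with both and 1 in the interaction, and with a stricter filter 2793 called genes, 417 at 1.5-fold and 169 only with both, with fewer genes tested. With library-number clusters as a block 0 interaction genes were called, and 5475 in the main comparison. Tested against a fold of 1.5, 423 genes passed, 282 higher and 141 lower. At a fold threshold of 2 the set past it only with both stresses held 140 genes, 15 of them shared with the 352, and at 1.4 it held 456, with 198 shared.

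Leaving out each of the 23 libraries gave 5076 to 5539 called genes, 948 to 1089 at 1.5-fold, 292 to 399 only with both stresses, and 1 to 8 interaction genes. Of the named genes, Gm20716 was 0.32 in females alone, and the combined difference of Tmem30a was -0.0021 with the block and between -0.00078 and 0.020 when single libraries were left out. The cause was not tested. Of the named genes, 26 lost their call in some setting. These were Gm15501 in 21 of 34 settings, Gm20716 in 13 of 34, Cry1 in 11 of 33, Gm49540 and Bhlhe40 in 8 of 34, Rps25-ps1 in 5 of 33, and 20 others in 1 to 3 settings, among them Atf3 in females alone (0.25). Acta1, Larp6 and the other genes named throughout kept their direction and their call in all settings run. No paired analysis was possible because every library number occurs once. The labels give no batch, and genes at low counts are the least precise.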
